A study of Homo sapiens with 8 samples.

Results

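The baseline labelling of RNA was described across genes in vehicle-treated NALM6 cells, an established human cell line derived from a B-cell precursor leukaemia. All 3 libraries were of the line that carries a doxycycline-inducible wild-type HMGN1 gene, given vehicle for 6 h, with 4-thiouridine at 100 µM in the medium for the last 5 h. A gene was included where its most abundant transcript row had at least 10 CPM (reads scaled to library size) in each of the 3 libraries, which left 5107 of 27444 genes. EXTL3, KIAA0895L and SLC25A20 entered with a lowest value of 10.0 CPM, and TMEM265, FLJ35220 and SCRN2 stayed out with 9.99 CPM. The same genes were compared with 3 libraries of the same line given 100 ng/ml doxycycline for 6 h (induced wild type). For reference, values are also given for 2 doxycycline-treated libraries of the line carrying the S20,24E mutant of HMGN1, which binds nucleosomes poorly (induced mutant). All 8 libraries received 4-thiouridine, so the background of conversion without label was not measured.

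In SLAM-seq, 4-thiouridine is built into RNA while it is transcribed, and a chemical step then makes the labelled bases read as C in place of T. An mRNA that is made and destroyed quickly is replaced by labelled copies within hours, whereas a long-lived mRNA still consists mainly of copies made earlier. Immediate early and stress-response mRNAs are textbook examples of the first kind, and mRNAs of ribosomal proteins and of energy metabolism of the second. The value used here is the deposited T-to-C conversion of a transcript, given as a percent. It is not a share of reads: of the transcript rows that held a single read and any conversion, 1339 of 1356 in vehicle A, 1444 of 1445 in B and 1561 of 1562 in C lay strictly between 0 and 1 as a fraction. With a single labelling time and no unlabelled library it gives no half-life. "Fast" and "slow" below refer to conversion alone.

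The 3 vehicle libraries held 8.89, 11.5 and 17.7 M reads, so 10 CPM stood for 88.9, 115 and 177 reads. The median conversion of the 5107 genes was 4.23% in vehicle A, 5.11% in B and 6.01% in C, and the value of each gene was therefore divided by the median of its library (relative conversion). Of 13 precursor B-cell markers in the table, 11 had 10 CPM or more in all 3 libraries, and the T-cell genes CD3D, CD3E and CD2 were at 0. Erythroid, fibroblast, epithelial and NK lists had no gene at 10 CPM. Of 10 myeloid markers only CSF1R passed that level, at 512, 424 and 417 CPM with a conversion of 0.00580%, 0.0108% and 0.00863%, while the myeloid genes S100A8, S100A9 and ELANE were at 0. HMGN1, the induced gene, had 191, 153 and 145 CPM with vehicle. Induced wild-type libraries had 252, 217 and 317 CPM and induced mutant libraries 223 and 200 CPM, so the groups with and without doxycycline did not overlap.

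Relative conversion varied widely and reproducibly between genes. Its quartiles were 0.60 and 1.40, its 5th percentile 0.180 and its 95th percentile 1.86. Of the 5107 genes, 123 reached at least 2 times the library median and 987 stayed at or below 0.5 times. Against the spread of the 3 libraries, 2028 genes lay above the library median and 2126 below (limma on log2 of relative conversion, Benjamini-Hochberg adjusted p under 0.05). These are 39.7% and 41.6% of all genes tested, and they are the background for every list below. The order of genes was much the same in each library, with Spearman's rho across the 5107 genes of 0.955 for A and B, 0.955 for A and C, and 0.971 for B and C. These genes share libraries and depth, and the coefficients only describe them. Where the reads, and not the genes, set the centre (a mean conversion weighted by CPM), 63.3% of genes lay above it and 21.7% below. That centre shifts the median of all genes by 0.64 on the log2 scale, and it moves the list medians of translation factors (1.09), proteasome genes (1.06), cytokine and JAK-STAT genes (1.32) and long non-coding RNAs (1.35) from below the centre to above it.

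**Figure D1:**
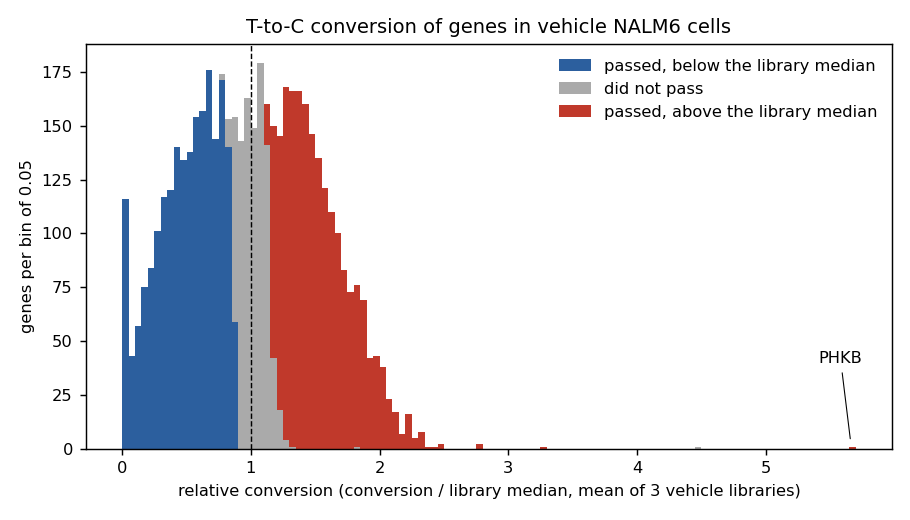
Histogram of relative conversion (mean of the 3 vehicle libraries, x axis) in bins of 0.05, with the number of genes per bin (y axis) for the 2028 genes that passed above the library median, the 2126 that passed below and the 953 that did not pass. The main body runs from near 0 to about 2, a separate column of 116 genes stands at 0.05 or less, and PHKB lies alone at 5.66.

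The fastest gene was PHKB, which encodes a regulatory subunit of phosphorylase kinase. Its conversion was 29.3%, 26.5% and 29.1% in vehicle A, B and C, at 236, 190 and 278 CPM, and it was 5.66 ± 1.12 times the library median (SD, n = 3). It stood at 5.66 in induced wild type and 6.33 in the mutant libraries, and its conversion did not rise with the library medians. PHKB overlaps the opposite-strand gene ITFG1 and contains the annotated RNA5SP425 on its own strand; the part of either in its reads was not tested. The next protein-coding gene was PHLDA3, a p53-induced inhibitor of AKT, with 14%, 12.5% and 15.0% conversion and a relative conversion of 2.75 ± 0.48. The others of the 20 highest lay close together, from 2.46 for the DNA exonuclease TREX1 to 2.24 for C15orf39. They included the Mediator subunit MED19 (2.40), the transcription factors LYL1 (2.32) and ID3 (2.32), the RNA exonuclease AEN (2.34), the G-protein regulator RGS16 (2.29) and the receptor NOTCH2 (2.26). H3F3C (2.35) has near-identical histone copies, and its reads may be shared with them. In naming these genes, 5 higher-ranked entries of microRNA, LOC, accession-only and similar names were passed over.

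The measured genes of the immediate early and stress responses were fast as a group. Of 46 listed immediate early genes and AU-rich decay targets, 14 reached the CPM minimum and were measured. All 14 passed above the library median, against 39.7% of all genes, with a list median of 1.91. The cell-cycle inhibitor CDKN1A combined this with abundance, at 9.71%, 11.6% and 12.4% conversion and 167, 276 and 350 CPM. ID3 had 10.6%, 12.1% and 12.5% conversion, GADD45A 9.57%, 11.5% and 12.8%, and the oncogene MYC 8.97%, 9.88% and 10.0%. Even the slowest of the 14, the chemokine receptor CXCR4, stood at 1.5 ± 0.10 times the library median. In each of these genes every vehicle library lay above its own median.

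Of 11 measured p53 targets, 10 passed above the median and 1 below. SESN2 had 11.8%, 9.86% and 11.9% conversion, the death receptor TNFRSF10B was at 1.82 and MDM2, which degrades p53, at 1.54. Only CCNG1, the cyclin G1 gene, was slow, with 3.23%, 3.61% and 3.47%. CCNG1 did not pass on either side with the read-weighted centre (log2 value 0.0764, limma adjusted p = 0.555) or with a minimum of 30 CPM (adjusted p = 0.453). Of 20 targets of ATF4, the transcription factor of the integrated stress response, 13 passed above and 4 below. Those above included DDIT3 (2.21), the ATF4 gene itself (1.77 at 214 CPM), TRIB3 (1.78) and HSPA5, the main chaperone of the endoplasmic reticulum (1.8 at 179 CPM). Those below were the asparagine synthetase gene ASNS (0.337), SHMT2 (0.529), PHGDH (0.552) and the tryptophan tRNA ligase gene WARS (0.738). NF-kB feedback had 3 measured genes, RELA, NFKBIB and NFKB2, and all 3 passed above, though NFKB2 did not without a CPM minimum (limma adjusted p = 0.0625). In the BCL2 family 4 of 7 passed above, led by BAK1 (1.86) and the short-lived survival factor MCL1 (1.57), and none below.

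**Figure D2:**
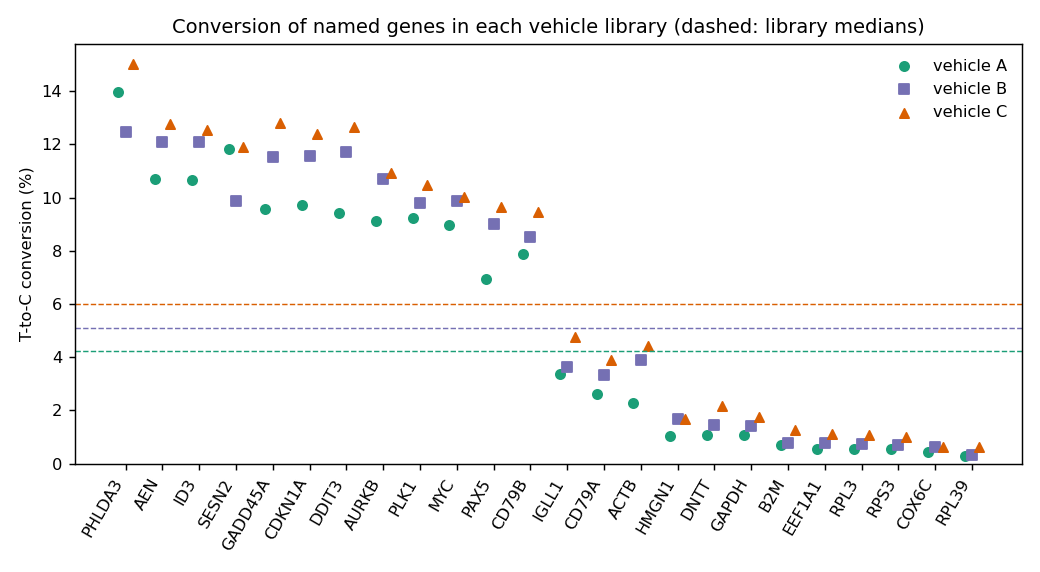
T-to-C conversion in percent (y axis) of 24 genes chosen to show the range (x axis), with 1 symbol for each vehicle library and dashed lines at the library medians of 4.23%, 5.11% and 6.01%. Every symbol of the 12 genes from PHLDA3 to CD79B lies above its library's median, and every symbol of the 12 genes from IGLL1 to RPL39 lies below it.

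Genes of mitosis were fast and those of DNA replication were mixed. Of 24 mitotic and G2/M genes, 21 passed above the median and none below, with a list median of 1.53. The mitotic kinase genes AURKB (9.13%, 10.7% and 10.9%) and PLK1 (9.23%, 9.79% and 10.5%) led, followed by AURKA (1.77), CKS2 (1.76), UBE2C (1.75) and CDC20 (1.73). BIRC5, TOP2A and CCNA2 did not pass, at 0.991, 0.980 and 0.902, and without vehicle A or with a minimum of 5 CPM CCNA2 passed below. Of 29 S-phase genes, 10 passed above and 9 below, against 39.7% and 41.6% of all genes. The replication licensing factor CDT1 stood at 2.03 and UHRF1 at 1.70, while the subunits of the MCM helicase ranged from 0.754 for MCM4 to 1.07 for MCM7. The nucleotide enzymes RRM1 (0.50) and TYMS (0.654) were slow. No replication-dependent histone gene of 70 listed reached 10 CPM in all 3 libraries. Cells of all cycle phases were pooled, so fewer cells in a phase and less RNA per cell cannot be told apart.

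Genes of histone acetylation, pause release, Polycomb complexes and SR splicing factors passed above the median more often than below it. These lists are small, with 12 to 19 measured genes, and over all genes 39.7% passed above and 41.6% below. Of 13 histone acetyltransferase and bromodomain genes, 9 passed above and only NCOA2 (0.654) below, though it did not pass with the read-weighted centre (limma adjusted p = 0.888). BRD2 had 8.81%, 9.79% and 11.3% conversion, but the median over all of its transcript rows turned this into a log2 value of -4.39. That is the lowest value possible and stands for no conversion, so the call holds for its most abundant row. CREBBP stood at 1.87. Among 14 pause-release genes 8 passed above, with CDK9, the kinase that releases paused RNA polymerase II, at 1.82 and its regulator MEPCE at 1.86. SUPT4H1, TH1L and AFF1 passed below, AFF1 at 0.472. Over all transcript rows AFF1 turned to a log2 value of 0.24, which did not pass (limma adjusted p = 0.0747). TH1L did not pass with a minimum of 30 CPM or with the read-weighted centre. Of 12 Polycomb genes 7 passed above, among them CBX2 (1.89), and EZH2 stood at 1.23. PHC1 (0.179) and AEBP2 (0.121) were among the lowest, and both have annotated genes on the opposite strand, M6PR and EEF1A1P4. With a minimum of 30 CPM the Polycomb median fell from 1.29 to 0.851. Of 19 SR splicing factor genes 14 passed above, from CLK3 (2.10) and SRSF4 (1.91) down to SRSF7 (1.16), and SRSF11, SRSF9 and SRSF1 passed below. With the read-weighted centre SRSF9 and SRSF1 turned positive without passing (limma adjusted p = 0.102 and 0.150), and with a minimum of 30 CPM neither passed.

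HMGN1 itself was slow at baseline, at 1.04%, 1.66% and 1.69% conversion or 0.284 ± 0.040 times the library median. Its relatives HMGN2 (0.393), HMGN5 (0.487), HMGB1 (0.508) and HMGN3 (0.572) also passed below, and 7 of 10 genes of HMG chromatin proteins did. HMGB2, which rises in dividing cells, stood at 1.31 with 460 CPM.

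Most ribosome biogenesis genes passed above the median, and most cytosolic ribosomal protein genes below it. Their median CPM also differed, at 43.2 and 831, and its part in this difference was not tested. Of 39 ribosome biogenesis genes 29 passed above the median, with RRP8 (2.13), RRS1 (2.06), NOP2 (1.89) and the abundant NOP56 (1.67 at 232 CPM) and nucleolin gene NCL (1.28 at 610 CPM). The 6 that passed below included the nucleolar protein genes NPM1 (0.267), FBL (0.325) and NHP2 (0.404). Of 78 cytosolic ribosomal protein genes, 76 passed below and 1 above, against 41.6% and 39.7% of all genes, with a median of 0.237. RPL3 had 0.529%, 0.751% and 1.06% conversion at 2817, 2364 and 2159 CPM. RPS3 had 0.562%, 0.705% and 1.01%, and RPL39, the slowest, 0.271%, 0.334% and 0.624%. The gene above the median was RPL7L1 (1.24), a paralogue that acts in ribosome assembly; its call was lost without vehicle A (adjusted p = 0.0554 in limma), with a minimum of 5 CPM (0.122), with none (0.292), over all transcript rows (0.0528) and among genes with no annotated gene on the opposite strand (0.136). RPL41 did not pass (0.921), though it passed below the median among genes with no annotated gene on the opposite strand. By contrast, its conversion of 3.51%, 4.26% and 6.60% in vehicle A, B and C lay above the read-weighted centres of 2.44%, 3.38% and 4.17%. Ribosomal protein genes have many processed pseudogenes, and how the counting treated such copies is not stated in the labels.

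Start sites were compared between slow and fast genes. Many mRNAs of the translation apparatus begin with a 5′ terminal oligopyrimidine tract, through which mTOR signalling controls their translation. The 25 bases around the RefSeq start (5 before and 20 from the start, GRCh38.p14, gene strand) are shown for 8 slow genes and then 4 fast ones, picked after their values were seen, with the unbroken run of C and T from the annotated first base in capitals where that base is C.
RPL39 (chrX:119791611-119791635, minus strand): agcttCCCTCCTCTTCCTTTCTCCg
RPS12 (chr6:132814564-132814588, plus strand): gaggcCTCTTTCCCTgccgccgccg
RPS3 (chr11:75399513-75399537, plus strand): cacttCCTTTCCTTTCagcggagcg
RPSA (chr3:39406715-39406739, plus strand): cctgtCTTTTCCgtgctacctgcag
EEF1A1 (chr6:73521013-73521037, minus strand): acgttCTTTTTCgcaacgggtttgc
TPT1 (chr13:45341164-45341188, minus strand): tcggcCTTTTCCgcccgctcccccc
RPL3 (chr22:39319604-39319628, minus strand): ccggcCTCTaccggcgggatttgat
RPL11 (chr1:23691774-23691798, plus strand): cccataaggccctcggccggaagct
CDKN1A (chr6:36678709-36678733, plus strand): cagctgaggtgtgagcagctgccga
ID3 (chr1:23559482-23559506, minus strand): tgcgcgcgttgcaggtcactgtagc
DDIT3 (chr12:57520495-57520519, minus strand): ccgaggtcagagacttaagtctaag
NOTCH2 (chr1:120069643-120069667, minus strand): acacgaggctgcttcgttgcacacc
A C at the annotated first base followed by at least 4 bases that were each C or T, on the gene strand, was present in RPL39, RPS12, RPS3, RPSA, EEF1A1 and TPT1. RPL3 had a shorter run and RPL11 none at its listed start. It was found in 41 of 62 ribosomal protein genes with a listed start (66.1%), in 298 of 4195 genes measured here (7.10%) and in 4.04% of all 27305 genes listed. Ribosomal protein genes with the run had a median relative conversion of 0.216 (41 genes) and those without it 0.278 (21 genes). The run was present in 10 of 26 translation factor genes and 4 of 13 small nucleolar RNA host genes, but in none of 16 glycolysis and none of 31 proteasome genes, which were slow as well. Leaving out the ribosomal and translation factor lists, 7.98% of the genes below the median and 4.71% of those above it had the run. Of the highest quintile by CPM 14.2% had it, and 9.21% without these lists. The part of CPM in this difference was not tested. A match describes the letters at the listed start, which need not be the start used in NALM6 cells.

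Translation factors followed the ribosomal proteins in part. Of 34 genes 21 passed below and 8 above, with a median of 0.698. The elongation factor gene EEF1A1, the most abundant gene measured (9840.4, 8903 and 7881 CPM), had 0.535%, 0.766% and 1.11% conversion. TPT1 (0.123), EEF1G (0.212), EEF1B2 (0.231) and PABPC1, the poly(A)-binding protein gene (0.249), were slow as well. Among initiation factors EIF3E (0.159) and EIF3L (0.161) were slow, but EIF3A (1.83), EIF5 (1.41) and EIF4G1 (1.27) were fast, so subunits of EIF3 stood at both ends. Without a CPM minimum EIF5 did not pass (limma adjusted p = 0.0569).

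Most genes of the respiratory chain, of glycolysis and of a mixed housekeeping list passed below the median, against 41.6% of all genes. Of 76 nuclear genes of the respiratory chain 73 passed below and 1, NDUFV2 (1.22), above, with a median of 0.390. The call of NDUFV2 was lost with a minimum of 5 CPM (adjusted p = 0.124 in limma) and with no minimum (0.241). COX6C had 0.441%, 0.605% and 0.618% conversion at 194, 140 and 162 CPM. Of 17 glycolysis genes 13 passed below. The enzymes TPI1 (0.548%, 0.695% and 0.981%), PGK1 (0.146) and LDHA (0.164) were among the lowest, and GAPDH stood at 0.273. The glucose transporter SLC2A1 was at the other end, with 11%, 9.86% and 11.1% conversion or 2.13 ± 0.41, and PFKP stood at 1.36. Of 36 proteasome genes 23 passed below and 4 above. POMP, the assembly factor (0.223), and PSMC2 (0.268) were slow, and PSMB5 (1.41) and PSMD7 (1.37) fast. PSMA8, a testis-type subunit at 0.0332, has an annotated gene on its opposite strand. Of 31 housekeeping genes 27 passed below: PPIA stood at 0.206, ferritin light chain FTL at 0.253 and HPRT1 at 0.143. The actin genes ACTB (0.680) and ACTG1 (0.667) passed below the median too, and neither passed with the read-weighted centre (limma adjusted p = 0.427 and 0.559) or with a minimum of 30 CPM. The tubulin gene TUBB2C was fast (1.61).

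Genes of B-cell identity passed on both sides of the median. Of 24 measured genes 12 passed above and 9 below, against 39.7% and 41.6% of all genes, with a median of 1.17. PAX5, which holds cells in the B lineage, had 6.94%, 8.99% and 9.66% conversion, and MEF2C (1.47), SPIB (1.45), SOX4 (1.45), FOXO1 (1.39), EBF1 (1.29), BACH2 (1.27) and LEF1 (1.21) also passed above. TCF3 did not pass (1.09). The recombinase gene RAG1 (1.19) passed above, whereas DNTT, which adds bases at V(D)J joints, had 1.06%, 1.44% and 2.16%. The 2 signalling chains of the B-cell receptor differed: CD79B had 7.86%, 8.52% and 9.47% conversion and CD79A 2.63%, 3.33% and 3.88%, so in every library CD79B lay above the median and CD79A below it. Likewise the surrogate light chain gene VPREB1 (1.27) passed above and its partner IGLL1 (0.769) below. The surface antigens MME (0.449) and CD9 (0.310) passed below. Among genes with no annotated gene on the opposite strand the median of this list was 0.870.

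Of 15 MHC class I and II genes 11 passed below and none above. B2M, the light chain of class I, had 0.702%, 0.779% and 1.26% conversion at 945 CPM, and the class II chaperone CD74 stood at 0.217 with 828 CPM. HLA-B (0.609) and HLA-C (0.470) lay higher than HLA-DRA (0.323), and the peptide transporters TAP1 (1.12) and TAP2 (1.07) and HLA-E (1.10) did not pass. MHC genes have many similar transcript rows: taking the median over all rows of a gene, the list median was 0, and without vehicle A TAP1 passed above. With a minimum of 30 CPM or the read-weighted centre TAP1 and HLA-E passed above.

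Smaller lists ran from fast to mixed. Of 17 cholesterol genes 9 passed above, the mevalonate kinase gene MVK (1.90) and NSDHL (1.8) among them, while FDPS (0.528) and ACAT2 (0.587) passed below. With the read-weighted centre ACAT2 did not pass (adjusted p = 0.253 in limma). Of 12 heat shock genes 7 passed above, such as the co-chaperone DNAJB1 (1.97) and HSPA8 (1.59 at 488 CPM), and 5 below, such as HSP90AA1 (0.532), HSP90AB1 (0.637) and the mitochondrial HSPD1 (0.465). Of 35 mRNA decay genes 22 passed above and 4 below, with the m6A reader YTHDF1 (1.77) and the deadenylase subunit CNOT3 (1.74) highest and the decapping enzyme DCP2 (0.478) lowest. The list median of 1.27 rose to 1.94 with a minimum of 30 CPM. Of 50 measured ZNF zinc finger genes (521 were listed), 29 passed above and 14 below, with ZNF296 (2.34) and ZNF622 (2.24) highest and ZNF141 (0.00330) lowest. With a minimum of 30 CPM the ZNF median fell from 1.34 to 0.640. Mitochondrial ribosomal protein genes did not share the pattern of the cytosolic ones. Of 71, 34 passed above and 27 below, against 39.7% and 41.6% of all genes, from MRPL17 (1.97) to MRPL33 (0.439).

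Among 9 cytokine receptor and JAK-STAT genes, the interleukin-7 receptor gene IL7R had 7.25%, 7.71% and 8.67% conversion and passed above. Its partner chain IL2RG had 1.47%, 1.97% and 3.08% and passed below, and so did STAT6, TYK2, JAK3 and STAT5B. The call of STAT5B (0.733) was lost without vehicle C (adjusted p = 0.0580 in limma) and it did not pass with the read-weighted centre (0.333). Of 15 small nucleolar RNA host genes 7 passed above and 7 below, against 39.7% and 41.6% of all genes. They ran from LOC388796 and C7orf40 (both 1.96) to NCRNA00188 (0.184), the most abundant at 790 CPM. GAS5 stood at 0.687 and SNHG1 at 1.35. Of 7 long non-coding RNAs PVT1 (1.85) and LOC647979 (1.28) passed above, and MALAT1, a nuclear RNA, passed below at 0.658. MALAT1 did not pass with the read-weighted centre (limma adjusted p = 0.780) or with a minimum of 30 CPM, nor LOC647979 without a minimum (0.161).

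**Figure D3:**
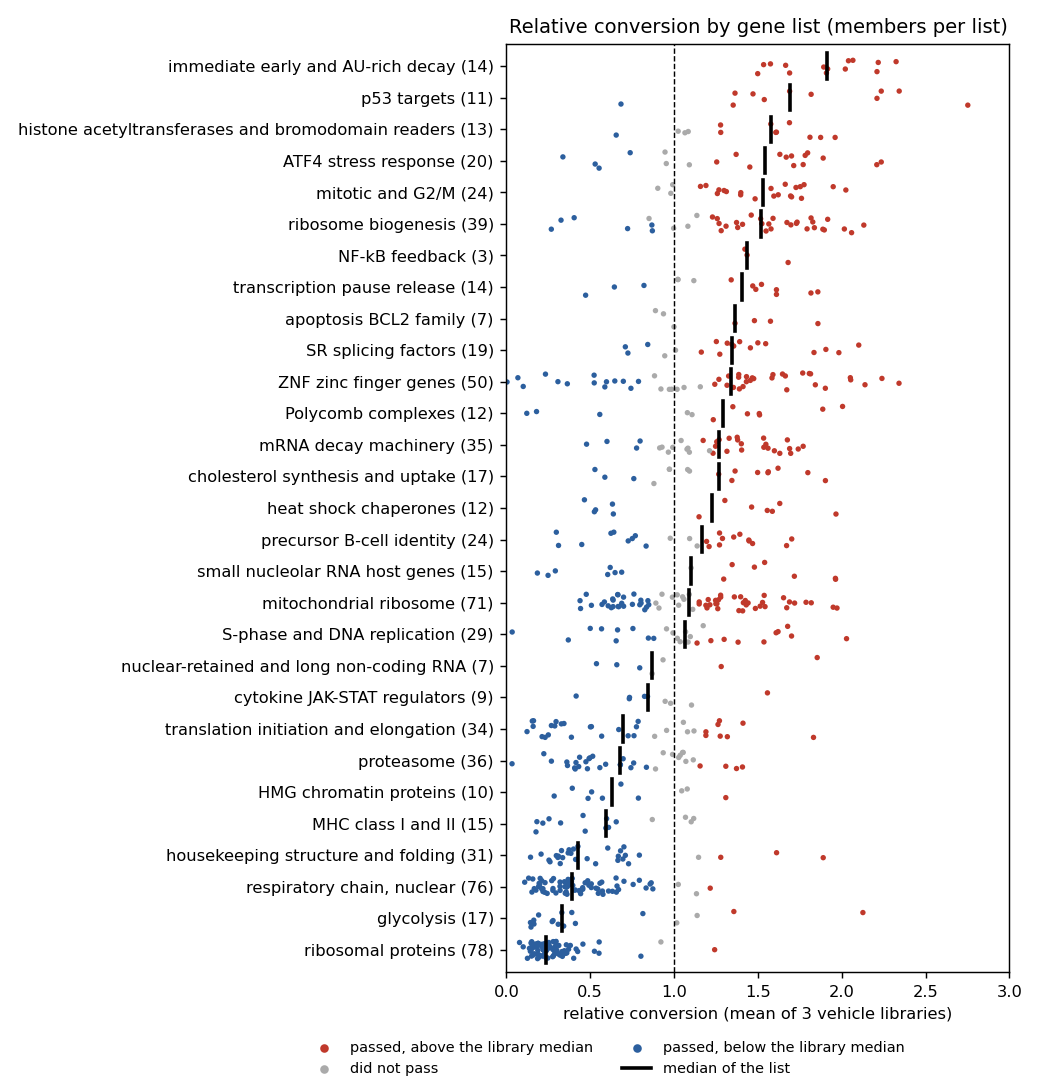
Relative conversion (x axis, mean of the 3 vehicle libraries) of each gene in 29 lists (y axis, members in brackets, ordered by list median), with 1 point per gene, red for genes that passed above the library median, blue for those that passed below and grey for those that did not pass. List medians run from 0.237 for ribosomal proteins to 1.91 for immediate early genes.

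Abundant mRNAs were slower than scarce ones. Spearman's rho between relative conversion and CPM was -0.354 across the 5107 genes, which share their libraries, and it only describes them. From the lowest to the highest quintile by CPM the median relative conversion was 1.18, 1.22, 1.10, 0.934 and 0.542. In the highest quintile (72.9 CPM and above) 74.2% of genes passed below and 16.1% above. Ribosomal proteins, at a median of 831 CPM, had a median of 0.237, whereas CDKN1A, HSPA8, CD79B and TRIM28 (1.43) lay above the library median. Without a minimum level rho was -0.050 over 16090 genes. Genes below the median held 77.5%, 71.0% and 68.7% of the reads of all 5107 genes in vehicle A, B and C, and those above it 14.6%, 19.4% and 21.2%. In the product of CPM and conversion the shares were close, with 44.4%, 40.2% and 40.7% from genes below and 41.7%, 45.1% and 44.5% from genes above.

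**Figure D4:**
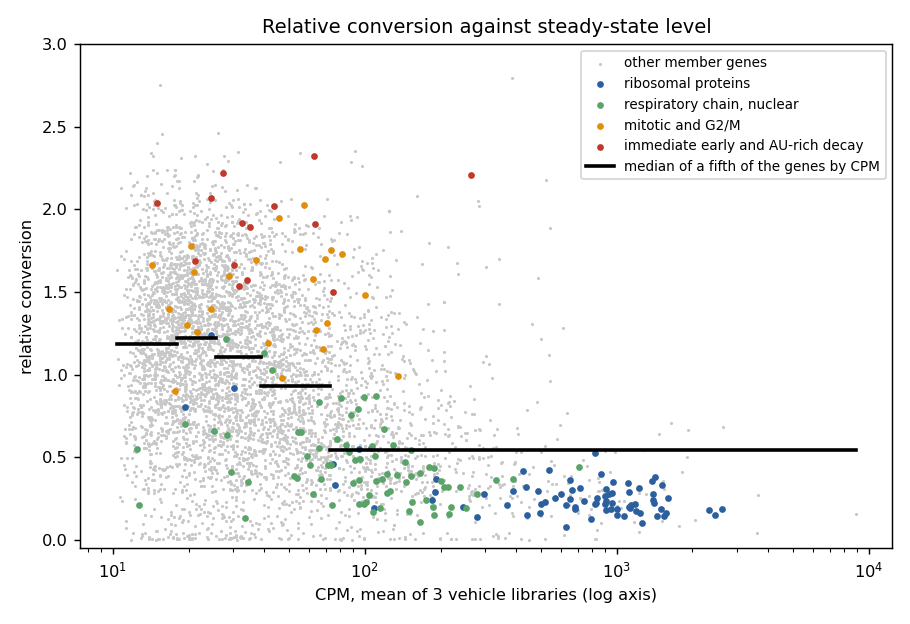
Relative conversion (y axis) against the mean CPM of the vehicle libraries (x axis, log scale), with 1 point per gene, 4 lists in colour and black bars at the median of each quintile of the genes by CPM. The bars run from 1.18 for the lowest quintile to 0.542 for the highest; the 3 genes at 3 or more lie outside the axis.

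A set of 116 genes had a relative conversion of 0.05 or less, almost no conversion at all. It included CSF1R (0.00164 at 451 CPM), ZNF141 (0.00330 at 230 CPM), POLA1 (0.0340 at 333 CPM), GLIPR1 (0.00251) and TALAM1 (0.00251 at 68.3 CPM), which is transcribed antisense to MALAT1. NGB, the neuroglobin gene, was at 0 in all 3 vehicle libraries with 183, 47.0 and 10.5 CPM. Of the 103 with an annotated structure, 100 (97.1%) had an annotated gene on the opposite strand within their span. Over all annotated genes the share was 60.2%. It was also high above 0.05, at 95% from 0.05 to 0.1 and 74.4% from 0.1 to 0.2. From 0.2 to 0.5 it was 58.8%. COX6C, PGK1 and TPI1, between 0.1 and 0.2, each have such a gene. Processed pseudogenes stood opposite 37.9% of annotated genes up to 0.05, against 11.5% of all. From 0.05 to 0.1 they did for 35%, and from 0.1 to 0.2 for 30.4%. Symbols of antisense RNAs were held by 34 of the 116. For 53 antisense genes the partner named in the symbol was in the table, and 42 had lower conversion than the partner. MIF-AS1 had 0.0152%, 0.0173% and 0.0315% conversion at 830 CPM, and MIF, an abundant cytokine gene, 1.14%, 1.29% and 1.60% at 775 CPM. PCNA-AS1 had 0.0192% and PCNA 6.62% on average, VIM-AS1 0.150% and VIM 3.45%, and CTBP1-AS 0.0240% and CTBP1 5.52%. The labels name a stranded kit; whether counting and conversion calling used strand is not given, and the reads of a gene and of its antisense partner cannot be told apart. The other 3 of the 103 had no annotated gene opposite, among them RSPO1 (0.0113). Above 0.05, other genes with none were DAPK1 (0.0687), RPL39 and PRICKLE3 (0.131), followed by NDUFB1, RPS13, TXN and S100A4, from 0.132 to 0.140.

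**Figure D5:**
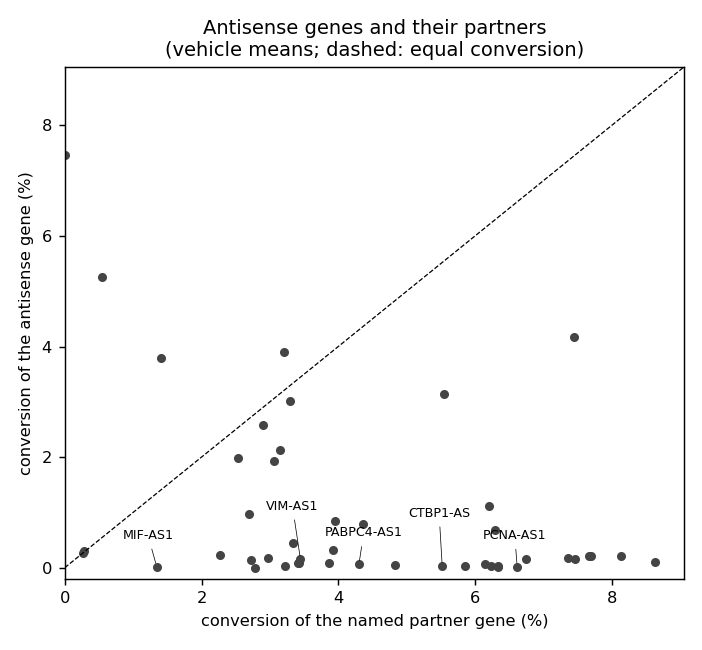
Mean conversion in percent of antisense genes (y axis) against that of the partner gene in their symbol (x axis) in vehicle libraries, for the 46 pairs whose partner had at least 1 CPM, with a dashed line at equal conversion. Most points lie near 0 on the y axis, and 41 of the 46 antisense genes have lower conversion than the partner.

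Gene structure is given for fast and slow genes as a description, with no test. The 1990 genes with an annotated structure and no annotated gene on the opposite strand (GENCODE 29) were split into quintiles of 398 genes. The summed length of all exons of a transcript had a median of 1408 bases in the slowest quintile and 2266.5 bases in the fastest. Median GC content was 50.2% in the slowest and 57.8% in the fastest quintile, and GC at the third codon position was 59.0% and 71.8%. Genes of a single exon made up 2.76% and 6.53%. Spearman's rho with relative conversion over these genes was 0.263 for summed exon length and 0.254 for GC content. Genomic span (0.013) and exon number (0.041) showed no steady rise or fall. The median span from the slowest to the fastest quintile was 13058, 17275, 22488, 18806 and 11813 bases. Median exon number was 6, 9, 10, 10 and 7 in the same order. The motif TATTTAT, a core of AU-rich decay elements, was present on the sense strand in the 3′ UTR of 12.6% of the slowest and 22.3% of the fastest quintile. Since UTR lengths differed, the share is given by length: 3.21% and 10.3% in UTRs of up to 300 bases, 7.91% and 16% up to 1000 bases, and 37.2% and 39.4% above. CPM also differed, with medians of 91.9 and 24.0 in the slowest and fastest quintiles; its part in these differences was not tested.

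The separate table of converted reads followed the same order only in part. For 4706 genes in both tables, the FPKM of converted reads per CPM of all reads had a median of 0.0368 in the slowest quintile by relative conversion, then 0.0781, 0.106, 0.121 and 0.105. Spearman's rho between the ratio and relative conversion was 0.243 over these genes, which share libraries and reads. FPKM is scaled to transcript length and CPM is not, and both values of a gene need not come from the same transcript row. The part of either in the ratio was not tested.

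Most baseline calls were shared with cells in which HMGN1 was induced. In induced wild-type libraries 2033 genes passed above their library medians (39.8%) and 2090 below (40.9%). Of these, 1900 above were shared with vehicle (93.7% of the vehicle calls and 93.5% of the induced calls) and 2005 below (94.3% and 95.9%). The list median of ribosomal proteins was 0.237 (vehicle), 0.253 (induced wild type) and 0.262 (induced mutant), and that of immediate early genes 1.91, 1.78 and 1.71. Tested directly, 0 genes differed in relative conversion between induced wild type and vehicle (limma, 0% of 5107 called), with 198 at an unadjusted p under 0.05. HMGN1 had the smallest p: it was 0.246, 0.326 and 0.282 times the library median with vehicle and 0.681, 0.688 and 1.09 times in induced wild type, without overlap (limma adjusted p = 0.450). Without vehicle B, 1 gene passed. CUX1 and C1orf14 were called below the median with vehicle and above it in induced wild type. CUX1 stood at 0.836 and 1.25, and C1orf14 at 0.364 and 1.68, with adjusted p values of 0.964 and 0.464 for the difference in limma. PGK1 stood at 0.146 (vehicle), 0.325 (induced wild type) and 0.373 (induced mutant), a difference between vehicle and induced wild type that did not pass.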

How the data were processed

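Values per RefSeq transcript were taken as deposited. Per the file headers the all-read columns are CPM; they were used as a deposited signal whose values were whole multiples of 1 read (100.0% within 0.1 read). The conversion columns were deposited as a fraction per transcript, and converted reads as FPKM. The genome build was hg19 (GRCh37), per the submitters' processing notes; the sources used here name no aligner, conversion caller, counted region or strand setting. Of 61177 rows 25396 had no symbol, and 60133 matched RefSeq (GRCh38.p14, names and start sequences only). Rows were grouped by RefSeq gene, the row with the highest mean vehicle CPM was kept, and 503 genes kept only an accession. Of the 5107 genes, 4195 had a listed RefSeq start, of which the first was used.

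Conversion was divided by the median of each library, and log2(relative conversion + 0.05) was tested against the median in limma 3.58.1 (R 4.3.3, eBayes with trend on log2 CPM), with Benjamini-Hochberg adjustment over all 5107 genes and a threshold of 0.05. Induced wild type and vehicle were compared in a fit of all 8 libraries. The script was tested on simulated data. Labels call the libraries biological replicates without naming separate cultures, so p-values measure the spread between these libraries. Members, lists and tests were chosen with earlier results of these data known. Named genes are HMGN1, the 20 highest and 20 lowest passing genes, the 10 most abundant, the 2 highest and 2 lowest of each of 30 lists, and 3 genes on each side of the CPM minimum; other list members, abundant fast genes, CUX1, C1orf14, antisense pairs and slow genes without an opposite-strand gene were chosen after their values were seen. A few such genes are not reported here. Of the lowest, 17 entries of non-coding or accession-only names were passed over. Alternatives were other pseudocounts (0.01, 0.2), CPM minimums (5, 30, none), centres, transcript rows, symbols and left-out libraries. Tables were made in Python 3.11.15 (pandas 2.3.3 with numpy 2.4.6) and plots in matplotlib 3.10.9.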

Additional observations from a re-analysis of the deposited data

How the results depend on the processing

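With a minimum of 30 CPM (2151 genes), 901 genes lay above and 899 below the median, 862 and 861 of them shared with induced wild type. Without a minimum (16090 genes), 3591 lay below, and rho with CPM was -0.050. With the CPM-weighted centre 3232 lay above and 1109 below. Among the 1990 genes with no annotated gene on the opposite strand, an alternative chosen after seeing the data, 802 lay above and 813 below; the smaller counts go with fewer genes tested. Without 1 library the counts were 1763 to 1996 above and 1949 to 2109 below, rho was -0.391 to -0.298, the shared calls were 1669 to 1900 above and 1850 to 1999 below, and 0 to 1 genes differed between induced wild type and vehicle. With a replicate block (the letters as pairs) that count was 0. Deviations of libraries with the same letter correlated at 0.0689, 0.158 and 0.401. Libraries of different letters were not compared in this way, so these values do not settle whether the letters are pairs. The main fit did not take them as pairs. With the CPM-weighted centre the log2 values of STAT5B (0.17), SRSF9 (0.16), SRSF1 (0.14), CCNG1 (0.0764), ACTB (0.0643), ACTG1 (0.0472), MALAT1 (0.0322) and NCOA2 (0.0214) turned positive. Over all transcript rows BRD2 turned to -4.39 and AFF1 to 0.24. The value of BRD2 is the floor set by the added 0.05 and stands for a row median without conversion. Why the rows of these genes differ was not tested. Of the other alternatives for named genes, 26 lost the call and 19 gained one in the same direction. The other 2294 kept direction and call, or were sign changes of genes that had not passed in the main setting. Whether those genes passed in the new direction was not counted. At the minimum of 10 CPM a value rests on at least 88.9 reads in vehicle A, which limits the precision of low conversions.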
